A study of Mus musculus with 69 samples.

Results

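The mouse mitochondrial genome encodes 37 genes, and each of the 3 count tables of this series held 37 rows whose gene symbol starts with mt-, out of 54532 rows in the agonist and microglia tables and 54429 rows in the inhibitor table. These rows are 13 genes for proteins, 2 genes for ribosomal RNAs (rRNAs) and 22 genes for transfer RNAs (tRNAs). At least 1 count was found for 36 of the 37 rows, in all 3 tables alike. The exception was mt-Tf, the gene of the phenylalanine tRNA, which was at 0 in all 69 libraries. A count of 0 there allows at most 0.128 to 0.209 CPM, counts scaled to a library total of 1e6, in a library of the agonist experiment, from an upper limit of 3 counts, which covers counting error only.

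Mitochondrial DNA is a small circle that is transcribed on both strands into long precursors, and the tRNAs that lie between the other genes are cut out to release the messenger RNAs and rRNAs. The 13 messengers encode core subunits of respiratory complexes I, III, IV and V, and the rRNAs build the mitochondrial ribosome that translates them. The remaining subunits, the mitochondrial ribosomal proteins and the enzymes that copy, transcribe and process mitochondrial DNA and RNA are encoded in the nucleus. In bulk libraries the share of reads from mitochondrial genes is often read as a measure of tissue or RNA quality, and it also differs between cell types with different mitochondrial content.

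The series asks how TLR7, a receptor in endosomes that detects single-stranded RNA, relates to sex differences in demyelination, and its 69 libraries form 16 groups in 3 experiments. In the agonist experiment, hippocampus came from wild-type (WT) males aged 12.12 months and WT females aged 9.6 months that received saline or Gardiquimod, a TLR7 agonist, giving 4 groups of 7 libraries. The microglia experiment used primary cells from WT or TLR7:-/- (KO) pups at postnatal days 1 to 3, to which DMSO or myelin was added, and its 8 groups of 1 sex, genotype and treatment held 3 libraries each. In the inhibitor experiment, hippocampus came from mice labelled PSUK+ at 5.50, 6.06 or 6.85 months, where an unnamed TLR7 inhibitor was given to 5 females and 6 males and the controls were 3 of each sex. The labels do not define PSUK+, give no dose, route or duration, and do not say that the microglia libraries of a group came from separate cultures or animals, so p-values there measure only the spread between these samples.

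The libraries were built with a 3′ tag kit, which reads from the polyadenylated end of a transcript, and their totals, in units of 1e6 counts, were 14.33 to 23.48 in the agonist experiment, 15.28 to 21.28 in the microglia experiment and 14.38 to 21.03 in the inhibitor experiment. Tlr7 itself was at 185 ± 13.1 CPM (SD, n = 12) in the WT microglia and between 1.2 and 2.68 CPM in the 12 KO libraries. The 10 microglial markers of a fixed list summed to between 4707 and 7442 CPM of the counts outside mitochondrial genes in the cultures, against 464.8 to 635.8 CPM in the agonist hippocampus and 282.5 to 579.1 CPM in the inhibitor hippocampus. A list of neuronal markers summed to at most 35.04 CPM in the cultures, 12540 to 16130 CPM in the agonist hippocampus and 13630 to 17590 CPM in the inhibitor hippocampus. The labels give nuclear RNA as the molecule and describe extraction from microglia for every library, and the part that this description has in the mitochondrial share was not tested.

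A 3′ tag library reads the end of a messenger, and whether the messengers end where the genes are annotated to end was not tested. The last 30 annotated bases of 6 members are shown, from the GENCODE M21 annotation of GRCm38. Capitals mark the bases of the stop codon that the genome itself holds. They show the 2 ways in which these genes end: mt-Nd1, mt-Co1 and mt-Nd6 carry a whole stop codon, whereas mt-Co3, mt-Nd4 and mt-Cytb end on a single T, so that the poly(A) tail added after cutting completes the stop codon. All lie on MT, and mt-Nd6 is the only protein gene read from the minus strand.
mt-Nd1, MT:3678-3707: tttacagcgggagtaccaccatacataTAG
mt-Co1, MT:6843-6872: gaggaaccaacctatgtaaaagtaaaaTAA
mt-Co3, MT:9361-9390: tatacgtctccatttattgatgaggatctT
mt-Nd4, MT:11515-11544: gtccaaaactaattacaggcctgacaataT
mt-Nd6, MT:13552-13581, minus strand: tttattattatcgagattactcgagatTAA
mt-Cytb, MT:15259-15288: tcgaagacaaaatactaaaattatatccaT

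A stretch of the nuclear genome repeats part of the mitochondrial genome, and this bears on which members can be measured. On chromosome 1, minus strand, between bases 24611535 and 24616197 (GRCm38), 7 annotated pseudogenes matched a member at 98% identity or more over at least 100 bases. Gm10925 matched 678 of the 681 bases of mt-Atp6, Gm28661 matched 681 bases of mt-Co2, Gm28437 matched 783 bases of mt-Co3 and Gm10222 matched 294 bases of mt-Nd4l, each at 100% identity. Gm28438 matched 345 bases of mt-Nd3 at 99.71% identity. Gm28439 held only the first 876 bases of mt-Nd4, and Gm29216 held bases 1063 to 1545 of mt-Co1 with 1 mismatch. The 30 bases at the 3′ end of each match are the same in member and copy, as shown for mt-Co2 and Gm28661 because this pair split its counts most evenly in the agonist experiment.
mt-Co2, transcript bases 652 to 681: tatttcgaaaactgatctgcttcaataatt
Gm28661: tatttcgaaaactgatctgcttcaataatt
Of the counts of the pair, Gm28661 took 46% with the agonist libraries, 37.58% in microglia and 27.54% with the inhibitor libraries. Gm10925 took 40.03%, 49.29% and 36.68% of the pair with mt-Atp6, and Gm28437 took 35.14%, 46.71% and 36.86% of the pair with mt-Co3. Gm28439, which lacks the 3′ end of mt-Nd4, took 2.095%, 0.859% and 1.263% of that pair. Gm29216, which holds the 3′ end of mt-Co1, took at most 0.9319% of its pair. The reason for the unequal splits was not tested. How the authors' counting treated reads that fit both places is not given in the sources used here, so mt-Atp6, mt-Co2, mt-Co3, mt-Nd3 and mt-Nd4l are uncertain in every comparison. For mt-Co1 and mt-Nd4 the copies took only these small parts. Counts of called members after all copies were added to their rows are given at the end. The genes mt-Atp8 and mt-Atp6, mt-Nd4l and mt-Nd4, and, on opposite strands, mt-Nd5 and mt-Nd6 also overlap, and whether the counting used strand is not given.

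Mitochondrial rows held several times more of a hippocampal library than of a microglial one. Their share of all counts averaged 8.981% in the 28 agonist libraries (5.178 to 15.25%), 9.13% in the 17 inhibitor libraries (3.308 to 15.71%) and 1.508% in the 24 microglia libraries (1.182 to 1.94%). No hippocampal library fell as low as any microglial one. The 3 tables were analysed separately, so this difference between tissues was not tested.

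Within the mitochondrial counts, mt-Co1, which encodes a catalytic subunit of cytochrome c oxidase (complex IV), was the most abundant member in each experiment. It held 30.18% of the mitochondrial counts in the agonist experiment, 31.08% in the inhibitor experiment and 45.65% in microglia. Without scaling to gene length, mt-Co1 averaged 27124.8 CPM in the agonist experiment, followed by mt-Cytb (cytochrome b, complex III) at 11222.6 and mt-Nd1 (complex I) at 10221.7. In microglia mt-Co1 was at 6869.24 CPM and mt-Nd1 at 1921.96, with mt-Nd5 (complex I) at 1662.33 and mt-Cytb at 1660.91. Genes with a full nuclear copy were far lower, with mt-Atp6 at 682.001 CPM, mt-Co2 at 632.519 and mt-Co3 at 650.465 in the agonist experiment. In microglia these 3 were at 20.1688, 34.8653 and 21.579 CPM.

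The rRNAs, mt-Rnr1 and mt-Rnr2, differed more between the tissues than the abundant messengers. Together they held 17.4% of the mitochondrial counts in the agonist libraries (14.43 to 24.32%), 16.4% in the inhibitor libraries (13.82 to 21.86%) and 3.796% in microglia (3.301 to 4.233%). The 22 tRNAs held 0.3223%, 0.2332% and 0.2732% of the mitochondrial counts in the same order, and the members on the minus strand 2.357%, 2.203% and 2.673%. Among the tRNAs mt-Tp (MT:15356-15422, minus strand) held 0.135% of the mitochondrial counts in the agonist experiment and 0.106% in microglia.

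**Figure D1:**
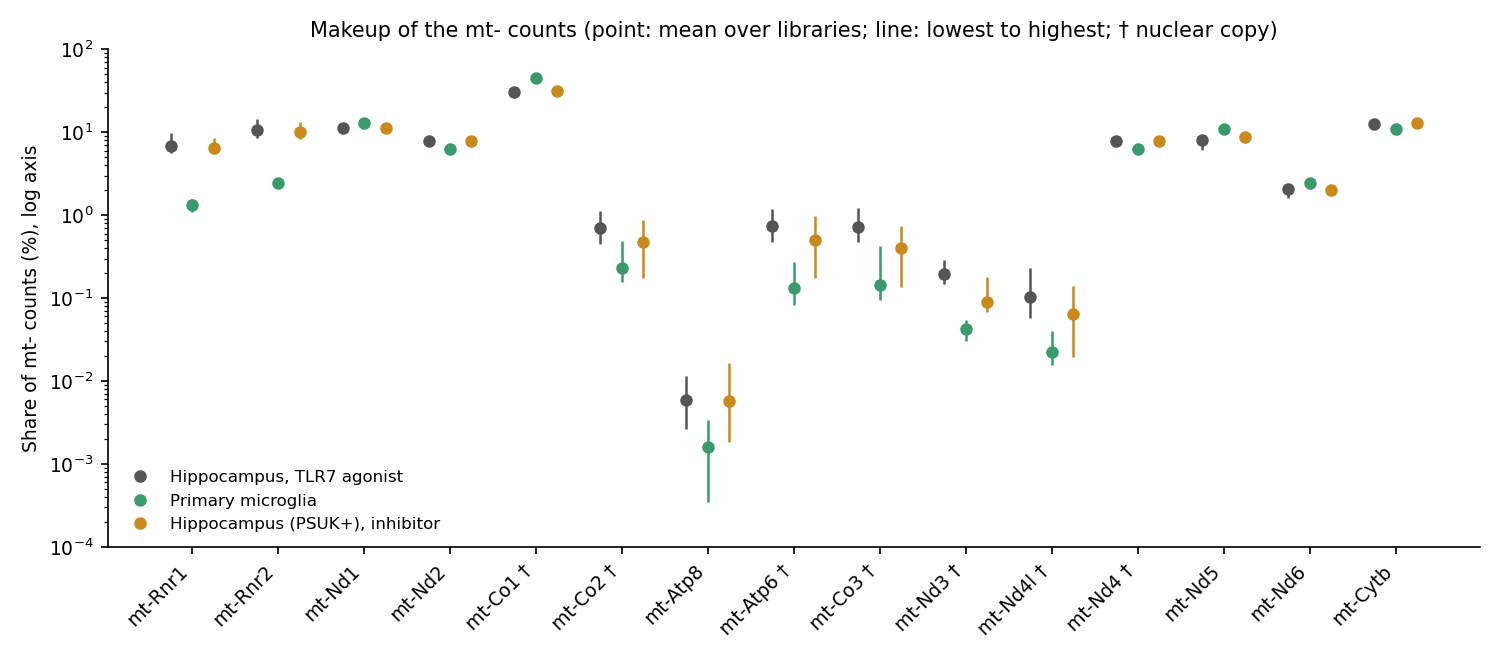
Makeup of the mitochondrial counts by experiment, as the percent of all mt- counts held by each protein or rRNA member. Points are means across libraries and lines run from lowest to highest, on a log axis. mt-Co1 was the most abundant member in all 3 experiments, at 45.65% in microglia. The rRNA members are drawn separately. Together they held 17.4% of mitochondrial counts in the agonist hippocampus against 3.796% in microglia.

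The most abundant messengers varied least in their share of the mitochondrial counts within a group. The median within-group coefficient of variation of that share was 2.03% for mt-Cytb in the agonist experiment, 2.66% in the inhibitor experiment and 1.27% in microglia, and at most 4.74% for mt-Co1, mt-Nd1, mt-Nd2, mt-Nd4, mt-Nd5 and mt-Nd6. The rRNA mt-Rnr1 varied more in the hippocampus, at 9.37% and 9.995%, against 2.05% in microglia. Rare members varied more still, also those without a nuclear copy, with mt-Tc at 18.45%, 20.83% and 9.458% and mt-Atp8 at 38.13%, 39.28% and 36.91%. For mt-Co2, whose counts are split with Gm28661, it was 23.2%, 49.7% and 10.2%.

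After group means were removed, log2(CPM + 1) of mt-Cytb followed that of mt-Co1 with a Pearson correlation of 0.996 over the 28 agonist libraries, 0.997 over the 17 inhibitor libraries and 0.933 over the 24 microglia libraries. mt-Nd4 gave 0.994, 0.996 and 0.945, and mt-Nd6, which is read from the other strand, gave 0.980, 0.994 and 0.910. The rRNA mt-Rnr1 gave lower values of 0.826, 0.976 and 0.799. mt-Atp6, with its copy Gm10925, gave 0.836, 0.914 and -0.257. These are descriptions, since all points share their library and its total.

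**Figure D2:**
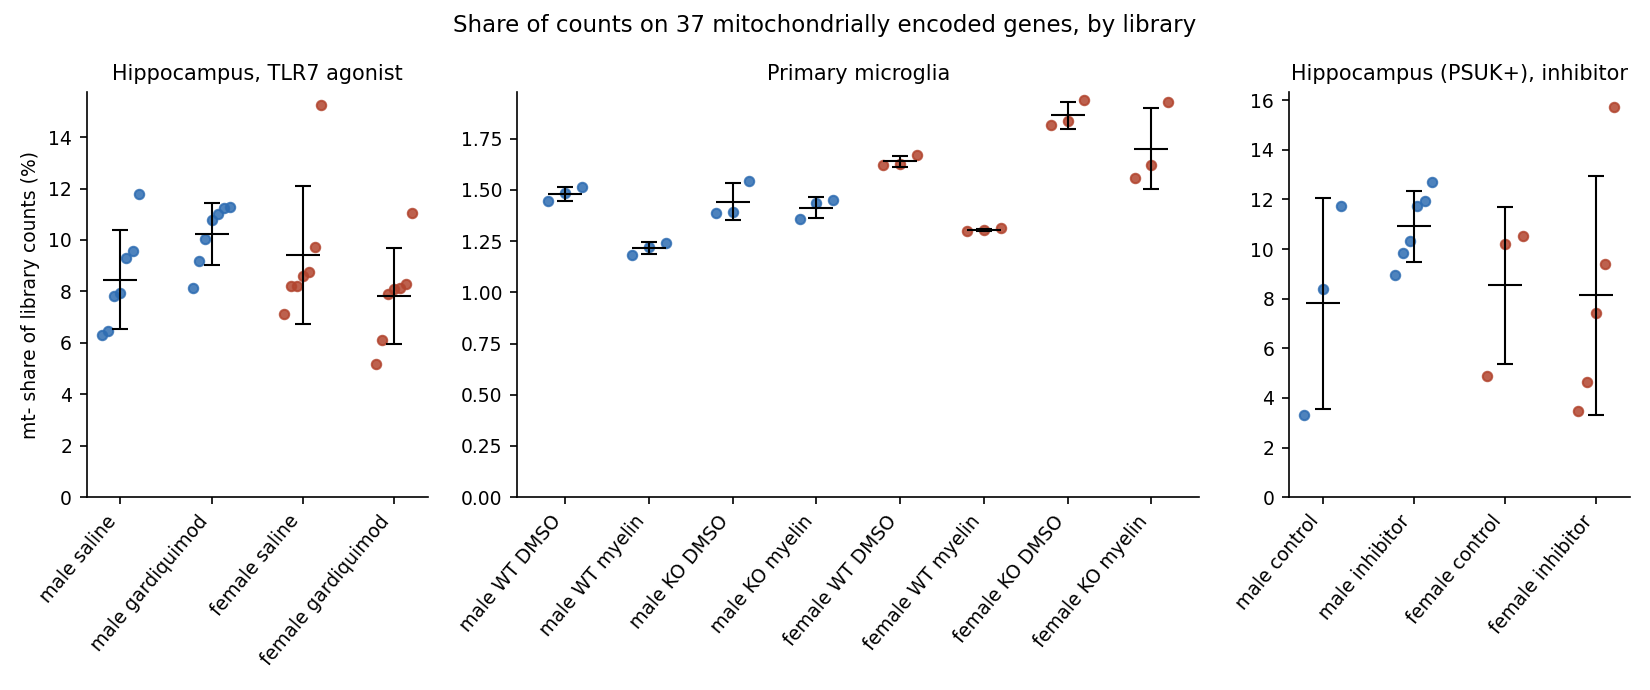
Percent of all counts in mt- rows in each library (points, males blue, females red) by group, with the mean ± SD in black; the 3 panels have different vertical scales. The hippocampal groups overlap within each experiment, from 5.178 to 15.25% and from 3.308 to 15.71%, while the microglial WT myelin groups lie below the WT DMSO groups.

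In WT microglia, myelin came with less mitochondrial RNA. The mitochondrial share was 1.445, 1.513 and 1.487% in the 3 male WT libraries given DMSO and 1.223, 1.182 and 1.24% in the 3 given myelin. In female WT it was 1.624, 1.672 and 1.623% with DMSO and 1.303, 1.3 and 1.312% with myelin. In both sexes every myelin library lay below every DMSO library, with a mean difference of -0.2666 percentage points in males (pooled SD 0.03203) and -0.3345 in females (pooled SD 0.02034). Bulk libraries cannot tell fewer cells of a type from less RNA per cell.

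In KO microglia the groups overlapped. Male KO libraries held 1.393, 1.545 and 1.389% with DMSO and 1.356, 1.436 and 1.449% with myelin. Female KO libraries held 1.834, 1.94 and 1.818% with DMSO and 1.929, 1.556 and 1.62% with myelin. The mean difference was -0.02906 percentage points in males (pooled SD 0.07227) and -0.1628 in females (pooled SD 0.1485), where the first myelin library lay within the DMSO range and the other 2 below it. Without the second DMSO library the male difference was 0.02223, and the female difference was -0.2763 without the first myelin library and -0.09004 without the second.

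Gene by gene, 25 of the 37 members passed the filter on low counts in microglia, namely 12 proteins, both rRNAs and 11 tRNAs. The 12 that did not pass were mt-Atp8 and the other 11 tRNA rows. With edgeR's quasi-likelihood test and Benjamini-Hochberg adjustment over all 14468 genes tested, at an adjusted p below 0.05, 9 of the 25 fell with myelin in male WT microglia and none rose, where 39.3% of all genes tested were called, 20% higher and 19.4% lower. In female WT microglia 11 of 25 fell and none rose, where 40.4% of all genes were called, 19.3% higher and 21.1% lower. The members' calls were about as frequent as those of all genes in either direction together, but all were lower. The median log2 fold change of the 25 members was -0.29 in males and -0.37 in females, beside medians of 0.00 over all genes in each sex. Of the 9 and the 11 members that fell, 8 were shared: mt-Cytb, mt-Nd2, mt-Nd4, mt-Nd5, mt-Nd6, mt-Tc, mt-Tn and mt-Tp.

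Cytochrome b, the mitochondrially encoded subunit of complex III, had the lowest adjusted p among the protein genes. The level of mt-Cytb was 1678, 1786 and 1776 CPM in male WT with DMSO and 1239, 1183 and 1238 CPM with myelin. In female WT it was 1918, 1965 and 1934 CPM with DMSO and 1346, 1322 and 1302 CPM with myelin. All 6 myelin libraries lay below all 6 DMSO libraries. The log2 fold change of mt-Cytb was -0.44 (SE 0.061, edgeR adjusted p = 1.29e-05) in males and -0.50 (SE 0.061, edgeR adjusted p = 2.38e-06) in females.

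Complex I members differed among themselves. mt-Nd5, whose product lies in the proton-pumping arm of complex I, fell by 0.40 on the log2 scale in males (edgeR adjusted p = 0.000287) and by 0.45 in females. Further membrane subunits fell with it, mt-Nd4 by 0.36 and 0.38, mt-Nd2 by 0.27 and 0.32 and mt-Nd6 by 0.43 and 0.45. mt-Nd6 was at 364, 376 and 362 CPM in male WT with DMSO and 249.7, 255 and 268 CPM with myelin, with no overlap. mt-Nd1, the membrane subunit next to the quinone site, was at 1807, 1865 and 1879.7 CPM in male WT with DMSO and 1622, 1579 and 1646 CPM with myelin. Its log2 fold change was -0.12 in males (edgeR adjusted p = 0.0856) and -0.16 in females (edgeR adjusted p = 0.0225).

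mt-Co1 was at 6465, 6664 and 6544 CPM in male WT with DMSO and 5727, 5601 and 5877 CPM with myelin. In female WT it was at 7314, 7477 and 7179 CPM with DMSO and 6120.2, 6122 and 6150.1 CPM with myelin. The groups did not overlap in either sex, and the log2 fold change was -0.12 in males (edgeR adjusted p = 0.12) and -0.21 in females (SE 0.057, edgeR adjusted p = 0.00624). The fold change is taken on normalized library sizes, the CPM on library totals.

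The small-subunit and large-subunit rRNAs differed in sign. mt-Rnr1, the small-subunit rRNA, was at 176.6, 179.7 and 178.2 CPM in male WT with DMSO and 187.2, 183.2 and 191.8 CPM with myelin, a log2 difference of 0.15 (edgeR adjusted p = 0.141). In female WT mt-Rnr1 was 0.14 higher on the log2 scale (edgeR adjusted p = 0.165). mt-Rnr2, the large-subunit rRNA, fell by 0.22 in female WT (SE 0.072, edgeR adjusted p = 0.0233), and its log2 difference was -0.10 in male WT, where it was not called.

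Whether the counts of tRNA rows come from mature tRNAs, their precursors or the opposite strand was not tested. Among these rows, the cysteine tRNA mt-Tc was at 11.9, 10.5 and 11.9 CPM in male WT with DMSO and 5.29, 8.12 and 7.31 CPM with myelin. Every myelin library lay below every DMSO library, and mt-Tc fell by 0.65 on the log2 scale in males (SE 0.13, edgeR adjusted p = 4.19e-05) and by 0.82 in females (SE 0.125, edgeR adjusted p = 2.08e-07). The asparagine tRNA mt-Tn, beside it on the minus strand (MT:5089-5159), fell by 0.77 and 0.85, and the proline tRNA mt-Tp by 0.29 and 0.45. The tyrosine tRNA mt-Ty also fell in male WT, from 4, 12 and 10 counts to 1, 2 and 2 counts, so that its log2 fold change of -2.23 (SE 0.766, edgeR adjusted p = 0.0163) rests on few reads.

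**Figure D3:**
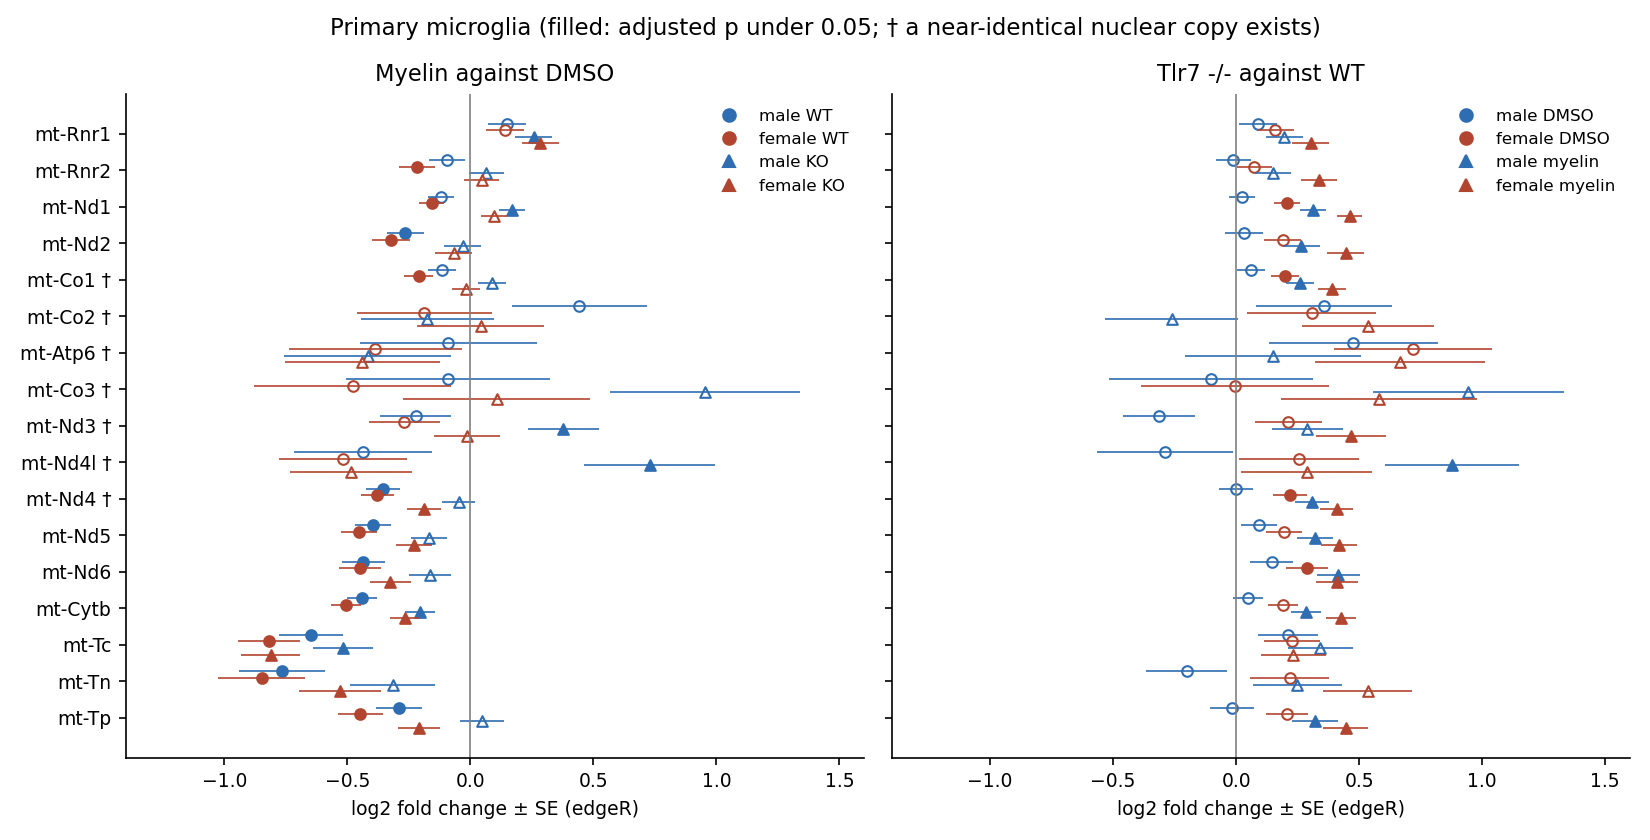
Log2 fold changes of the mt- members in the 8 microglia comparisons between treatments or genotypes, from edgeR; filled points were called at an adjusted p below 0.05 and a dagger marks members with a nuclear copy. mt-Cytb lies to the left of 0 in all 4 comparisons of myelin with DMSO and mt-Rnr1 to the right in all 4.

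In KO microglia members were called in both directions with myelin. In male KO, 6 of 25 members were called, 4 higher and 2 lower, where 38.2% of all genes were called, 18% higher and 20.2% lower, and the median of the members was 0.07 on the log2 scale against -0.01 over all genes. In female KO, 8 of 25 were called, 1 higher and 7 lower, where 41.2% of all genes were called, 20.8% higher and 20.4% lower, with a median of -0.23 against 0.01. The count in female KO was 4 without the second DMSO library and 5 without the second or the third myelin library. Under library totals without scaling the 6 calls in male KO became 2 higher and 3 lower.

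mt-Cytb was at 1651, 1789 and 1642 CPM in male KO with DMSO and 1369, 1430.1 and 1472 CPM with myelin. In female KO it was at 2126, 2302 and 2150.2 CPM with DMSO and 1983, 1575 and 1688 CPM with myelin. No myelin library reached the DMSO range in either sex, and mt-Cytb fell by 0.20 in males (SE 0.061, edgeR adjusted p = 0.0126) and by 0.27 in females (SE 0.061, edgeR adjusted p = 0.00172). mt-Tc fell by 0.52 and 0.81, so that mt-Cytb and mt-Tc were the 2 members called lower in all 4 comparisons.

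mt-Rnr1 was the only member called higher in both KO comparisons. It was at 173.3, 190.4 and 169.6 CPM in male KO with DMSO and 213.8, 199 and 205 CPM with myelin, a rise of 0.26 (SE 0.076, edgeR adjusted p = 0.0125). In female KO it was at 208.1, 211.1 and 207.9 CPM with DMSO and 292.2, 220.8 and 220.1 CPM with myelin, a rise of 0.28 (SE 0.075, edgeR adjusted p = 0.00547), with the first myelin library far above the others. The groups did not overlap in either sex.

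In male KO mt-Nd1 rose by 0.17 (SE 0.052, edgeR adjusted p = 0.0153), from 1732, 1884 and 1678 CPM to 1847, 1923 and 1999 CPM, with 1 DMSO library inside the myelin range. The other calls in male KO, mt-Nd3 at 0.38 (edgeR adjusted p = 0.0334) and mt-Nd4l at 0.73 (edgeR adjusted p = 0.0288), concern members with a nuclear copy. In female KO, mt-Nd5 fell by 0.23, mt-Nd6 by 0.33, mt-Nd4 by 0.19, mt-Tn by 0.53 and mt-Tp by 0.21.

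The proportions of some members within the mitochondrial counts separated the 12 myelin from the 12 DMSO libraries in both sexes and genotypes. mt-Cytb held 11.58 to 11.94% of the mitochondrial counts in the DMSO libraries and 9.922 to 10.42% in the myelin libraries. mt-Nd5 held 11.1 to 12.03% against 9.992 to 10.58%, and mt-Nd6 2.431 to 2.843% against 2.042 to 2.378%. mt-Tc held 0.06932 to 0.09393% against 0.04328 to 0.06866%. The opposite order held for mt-Co1, at 43.99 to 45.22% with DMSO and 46.02 to 47.4% with myelin. mt-Nd1 held 11.79 to 12.64% against 12.98 to 13.87%, and mt-Rnr1 1.078 to 1.244% against 1.358 to 1.577%. None of these ranges overlapped, whereas those of every other member did, mt-Nd2, mt-Nd4 and mt-Rnr2 among them. The separated members were singled out after their values were seen, and proportions of 1 total show unequal change, not which member was stable.

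The summed microglial markers moved with myelin as well, from 7102 to 7442 CPM in male WT with DMSO to 5113 to 5303 CPM with myelin, and from 6032 to 6294 CPM to 5054 to 5104 CPM in male KO. In female WT they went from 7004 to 7075 CPM down to 4862 to 5095 CPM, and in female KO from 6239 to 6324 CPM down to 4707 to 4739 CPM. Of the 10 markers, 8 fell in male WT, 8 in female WT, 5 in male KO and 8 in female KO, and 2, 1, 1 and 0 rose. Summed oligodendrocyte markers moved the other way, from 218.1 to 256.2 CPM in male WT with DMSO to 549.7 to 642.6 CPM with myelin. In female WT they went from 267.1 to 319.4 CPM up to 652.3 to 749.3 CPM. In male KO they went from 209.8 to 243.5 CPM up to 546.5 to 609.7 CPM. In female KO they went from 194.6 to 205.6 CPM up to 518.3 to 888.4 CPM, highest in the first myelin library. The part of these markers in the mitochondrial values was not tested.

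Nuclear genes for the respiratory chain were called higher more often than lower with myelin. Of 81 tested nuclear genes for subunits or assembly of complexes I to V, 29 rose and 3 fell in male WT and 32 rose and 3 fell in female WT, with medians of 0.08 and 0.10 on the log2 scale. In both directions together 39.5% and 43.2% of the list were called, near the shares of all genes given above, and 35.8% and 39.5% were higher beside 20% and 19.3% of all genes. In male KO 51 rose and 1 fell and in female KO 47 rose and 2 fell, with medians of 0.18 and 0.14, so that 63% and 58% were higher beside 18% and 20.8% of all genes. Under library totals without scaling the male WT counts became 16 and 6, and the median 0.00 beside -0.07 over all genes. The gene Cyc1, for cytochrome c1 of complex III, rose by 0.41 in male WT, 0.45 in female WT, 0.47 in male KO and 0.48 in female KO, while its mitochondrially encoded partner mt-Cytb fell in all 4. Sdhb of complex II, which has no mitochondrially encoded subunit, rose by 0.35, 0.25, 0.34 and 0.29. Cox7a2l, which joins respiratory complexes into supercomplexes, fell by 0.56, 0.65, 0.49 and 0.61.

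All 77 mitochondrial ribosomal protein genes were tested, and 34 rose in male WT, 36 in female WT, 44 in male KO and 47 in female KO, while 0, 0, 1 and 0 fell. These are 44.2%, 46.8%, 57.1% and 61.0% of the list higher, beside 20%, 19.3%, 18% and 20.8% of all genes. Under library totals without scaling, 23 rose and 3 fell in male WT. Mrpl52, of the large subunit, rose by 0.51, 0.52, 0.61 and 0.68. Of 28 genes for processing and stability of mitochondrial RNA, 14, 13, 15 and 15 rose and 1, 1, 0 and 1 fell, or 50%, 46.4%, 53.6% and 53.6% higher beside the same shares of all genes, and without scaling the female KO counts were 11 and 3. Of 17 genes for transcription and replication of mitochondrial DNA, 0, 1, 2 and 0 rose and 2, 3, 3 and 5 fell, or 11.8%, 17.6%, 17.6% and 29.4% lower beside 19.4%, 21.1%, 20.2% and 20.4% of all genes. Polg, the mitochondrial DNA polymerase, fell by 0.52, 0.48, 0.39 and 0.49, and Tfb2m, a mitochondrial transcription factor, fell by 0.34 in male WT and 0.35 in female WT.

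**Figure D4:**
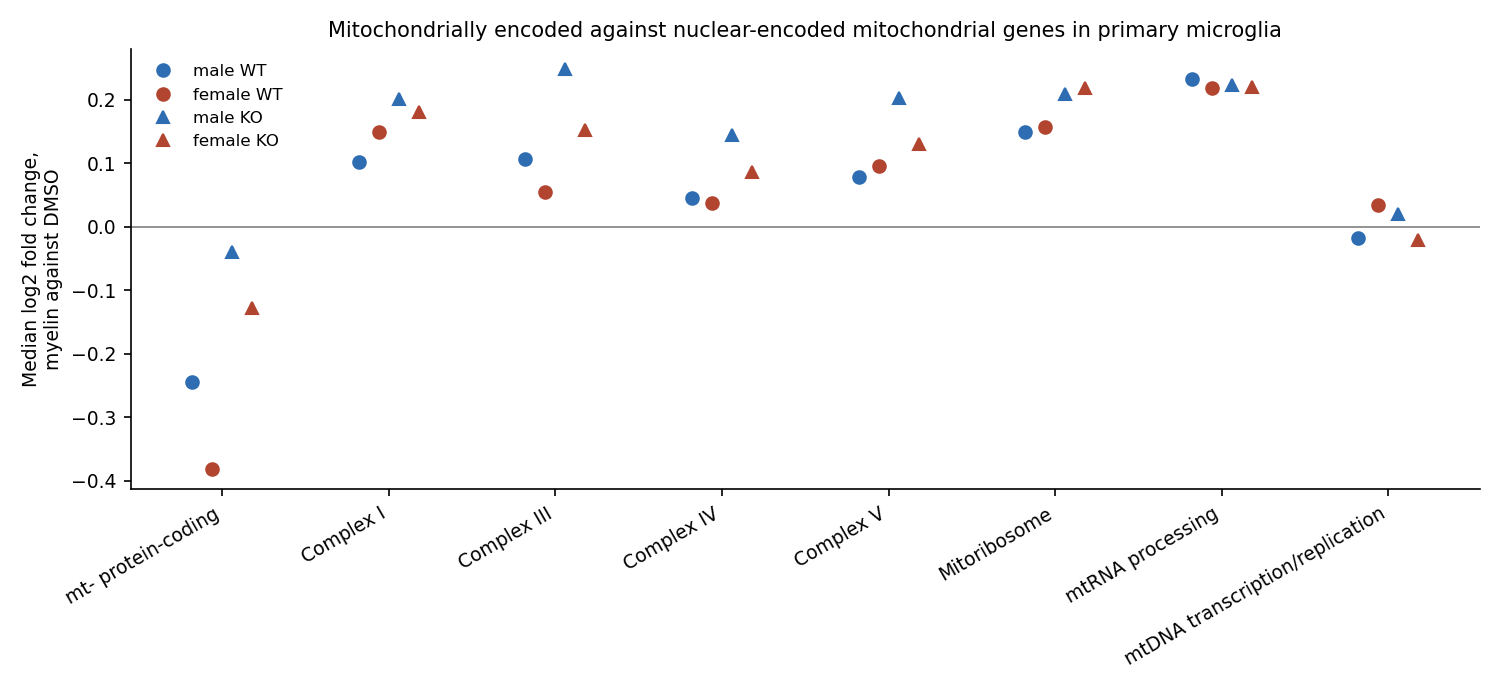
Median log2 fold change of nuclear-encoded mitochondrial gene lists and of the protein-coding mt- members in the comparisons, from edgeR. Respiratory complexes I, III, IV and V are separate lists, and complex II is left out. In WT microglia given myelin the protein-coding mt- members sit at -0.24 in males and -0.38 in females. The pooled nuclear respiratory-chain list, which is not drawn, had medians of 0.08 and 0.10.

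Loss of Tlr7 came with more mitochondrial RNA in 3 of the 4 settings in microglia. The share was higher in KO than in WT with no overlap in females given DMSO (0.225 percentage points, pooled SD 0.05082), females given myelin (0.3967, pooled SD 0.141) and males given myelin (0.1984, pooled SD 0.04136). In males given DMSO the difference was -0.03911 percentage points, with overlap (pooled SD 0.06737), and between -0.09041 and -0.01249 when 1 library was left out, at the ends without the second and the third KO library. These comparisons use the same libraries as those of myelin with DMSO.

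In males given DMSO, edgeR called 0 of 25 members between KO and WT, where 20.9% of all genes were called, and DESeq2 also called 0. An unadjusted p below 0.05 was found for 2 members, beside 4627 of all 14468 genes tested. Leaving out the first KO library gave 1 call. In females given DMSO 4 of 25 members were higher in KO and none lower, where 11.9% of all genes were called and 5.42% were higher. They were mt-Nd1 at 0.21 (SE 0.052, edgeR adjusted p = 0.0143), mt-Co1 at 0.20 (edgeR adjusted p = 0.0309), mt-Nd6 at 0.29 (edgeR adjusted p = 0.0361) and mt-Nd4 at 0.22 (edgeR adjusted p = 0.0443). mt-Nd1 was at 1936, 1998 and 1957 CPM in female WT and 2237, 2287 and 2215 CPM in female KO. The count was 0 without the first WT library, 1 without the third WT library or the second KO library, and 2 without the first KO library.

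With myelin, 11 of 25 members were higher in KO than in WT in males and none lower, where 20.6% of all genes were called and 10.1% were higher, and 11 of 25 in females, where 7.28% were called and 3.8% were higher. The medians were 0.31 and 0.41 on the log2 scale, against 0.00 and 0.01 over all genes. Of the 11 in each sex 8 were shared: mt-Co1, mt-Cytb, mt-Nd1, mt-Nd2, mt-Nd4, mt-Nd5, mt-Nd6 and mt-Tp. The counts in males are 8 proteins and 3 tRNAs, and in females 8 proteins, 2 rRNAs and 1 tRNA.

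mt-Nd1 with myelin was at 1622, 1579 and 1646 CPM in male WT and 1847, 1923 and 1999 CPM in male KO, higher in KO by 0.31 (SE 0.052, edgeR adjusted p = 0.000275). In females mt-Nd1 was at 1691, 1707 and 1718 CPM in WT and 2561, 2109 and 2247 CPM in KO, higher by 0.46 (SE 0.052, edgeR adjusted p = 1.04e-05). Every KO library lay above every WT library in both sexes. mt-Cytb was higher in KO by 0.28 in males and 0.43 in females (edgeR adjusted p = 0.000151), mt-Co1 by 0.26 and 0.39 and mt-Nd6 by 0.41 and 0.41.

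The rRNAs were called in females alone, mt-Rnr2 at 0.34 and mt-Rnr1 at 0.30, and the difference between sexes was not tested. In males the glutamate tRNA mt-Te, which borders mt-Nd6 on the minus strand, was higher in KO by 1.25, from 8, 13 and 11 counts to 24, 30 and 29 counts. mt-Ty was higher by 2.27, from 1, 2 and 2 counts to 6, 11 and 11 counts. mt-Nd4l, at 0.88 in males, and mt-Nd3, at 0.47 in females, have nuclear copies.

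Ttr, the transthyretin gene on the choroid plexus marker list, moved with genotype in males. It ranged from 129.2 to 226.5 CPM of non-mitochondrial counts in the 6 male WT libraries and from 3.791 to 20.39 CPM in the 6 male KO libraries. In females it ranged from 82.04 to 204.2 CPM in the 6 WT and from 41.03 to 521.6 CPM in the 6 KO libraries. Of the 9 markers of that list tested, 2 were lower in male KO given DMSO and 2 in male KO given myelin. These counts stand beside 9.3% and 10.6% of all genes called lower. With the log2 level of Ttr as a covariate, an alternative added after seeing the data, 8 members were called between male KO and WT given myelin and 11 in females. Among the nuclear respiratory-chain genes, 16 of 81 were higher and 0 lower in male KO given myelin (median 0.08), a share of 19.8% beside 20.6% of all genes called and 10.1% higher, or 3 and 1 under library totals without scaling, and 1 was higher and 0 lower in females (median 0.03), or 1.23% beside 3.8% of all genes.

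The response to myelin was compared directly between genotypes. In males 1 of 25 members was called, where 2.59% of all genes were called and 0.788% were higher. It was mt-Nd1, whose response was 0.29 higher on the log2 scale in KO (SE 0.074, edgeR adjusted p = 0.048), and this call was lost in 10 of 19 alternatives, including the removal of any 1 of the 3 male WT DMSO libraries, of the second or the third WT myelin library, of the third KO DMSO library or of the second KO myelin library. Removing the second KO DMSO library gave 3 calls, and removing the first KO myelin library gave 2. For mt-Cytb the difference was 0.24 in males (edgeR adjusted p = 0.212). The median over the members was 0.31 in males, against -0.02 over all genes.

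In females edgeR called 0 of 25 members for this difference, where 0.919% of all genes were called, and DESeq2 called 1. By edgeR 6 members, beside 1423 of all 14468 genes tested, had an unadjusted p below 0.05. Leaving out the second female KO myelin library also gave 1 call. mt-Nd1 was at 0.26 (SE 0.074, edgeR adjusted p = 0.158) and mt-Cytb at 0.24 (edgeR adjusted p = 0.322), and the median of the members was 0.22 against 0.01 over all genes. Between female and male WT microglia given DMSO, edgeR called 0 of 25 members, where 3.7% of all genes were called, and DESeq2 called 1. By edgeR 10 members, beside 2338 of all genes, had an unadjusted p below 0.05. The mitochondrial share there was 0.1578 percentage points higher in females (pooled SD 0.03136), with no overlap, and the median of the members was 0.20 against 0.01 over all genes.

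In the hippocampus no member passed the test with Gardiquimod. In males the mitochondrial share ran from 6.309% through a median of 7.809% to 11.79% with saline, and from 8.119% through 10.78% to 11.29% with Gardiquimod. In females it ran from 7.121% through 8.583% to 15.25% with saline and from 5.178% through 8.109% to 11.04% with Gardiquimod. The groups overlapped in both sexes. The mean difference was 1.781 percentage points in males (pooled SD 1.609) and -1.582 in females (pooled SD 2.314), or -0.6074 in females without the second saline library. Summed choroid plexus markers moved with the male groups. They were at 361.0 to 407.3 CPM of non-mitochondrial counts in 4 of the 7 male saline libraries, whose mitochondrial shares of 6.309 to 7.922% were the lowest 4 of the group, and at 2957 to 6304 CPM in the other 3, whose shares were 9.296 to 11.79%. All male Gardiquimod libraries were at 1945 to 6936 CPM. The list had 0 of 9 genes called by edgeR and by DESeq2 in males, with 0 at an unadjusted p below 0.05, at a median of 1.22 on the log2 scale. Over all 28 libraries its correlation with the share was 0.318 (Spearman 0.272), or 0.294 without 2 libraries. Its part in the mitochondrial values was not tested, beyond a fit with Ttr as a covariate that called 0 members. Females and males differ in age here as well as in sex, and the 2 cannot be told apart.

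Of the 37 members 32 passed the filter, 13 proteins, 2 rRNAs and 17 tRNAs. In males edgeR called 0 of 32, where 0.221% of all 17218 genes tested were called, and 1 member had an unadjusted p below 0.05, beside 2724 of all genes. In females it called 0, where 0.0232% of all genes were called, with 2 members below an unadjusted 0.05, beside 1043 of all genes. Averaged over the sexes it called 0, where 0.215% of all genes were called, with 0 below an unadjusted 0.05. DESeq2 called 0 in each of these.

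The estimates differed in sign between the sexes without passing the test. mt-Co1 was at 19314, 24102 and 34942 CPM (lowest, median, highest) in males with saline and at 24941, 32517 and 34878 CPM with Gardiquimod, a log2 difference of 0.31 (SE 0.173, edgeR adjusted p = 0.379). In females it was at 21806, 25812 and 46493 CPM with saline and at 15276, 23578 and 31656 CPM with Gardiquimod, a log2 difference of -0.38 (SE 0.174, edgeR adjusted p = 0.794). The median over the members was 0.28 in males and -0.34 in females, against -0.01 and 0.01 over all genes.

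For the difference of the response between the sexes edgeR called 0 of 32 members, where 0.00581% of all genes, a single gene, were called, and DESeq2 called 0. There 12 members, beside 2799 of all 17218 genes tested, had an unadjusted p below 0.05. Among these members were mt-Co1 at -0.69 (SE 0.245, edgeR adjusted p = 0.195), mt-Cytb at -0.66 (edgeR adjusted p = 0.225) and mt-Nd6 at -0.78 (edgeR adjusted p = 0.214). mt-Rnr1 was at -0.33 (edgeR adjusted p = 0.421). The lowest adjusted p over the members was 0.172. Between females and males given saline edgeR and DESeq2 called 0 members, where 0.43% of all genes were called, and 0 members had an unadjusted p below 0.05.

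In the inhibitor experiment the mitochondrial share varied more within groups than between them. It was 4.892, 10.51 and 10.2% in the 3 female controls and 11.73, 8.406 and 3.308% in the 3 male controls. With the inhibitor it was 4.622, 3.488, 15.71, 7.415 and 9.412% in females, and 8.936, 11.04 and 12.72% (lowest, median, highest) in the 6 males. All groups overlapped, and the inhibitor groups differed from their controls by 3.104 percentage points in males (pooled SD 2.572) and -0.406 in females (pooled SD 4.348). Without the third male control, the lowest library of all 17, the difference in males was 0.8508 percentage points, and without the first male control it was 5.06. In females it ran from -2.301 without the third library given the inhibitor to 0.7545 without the second.

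Of the members 31 passed the filter, 13 proteins, 2 rRNAs and 16 tRNAs. In males edgeR called 0, where 0.105% of all 17128 genes tested were called, with 0 members below an unadjusted p of 0.05. In females it called 0, where 0.0876% of all genes were called, and 1 member, mt-Atp8, beside 1982 of all genes, had an unadjusted p below 0.05, at -1.71 (SE 0.76, edgeR adjusted p = 0.4). Averaged over the sexes it called 0, where 0.0117% of all genes were called, with 0 below an unadjusted 0.05. For the difference of the response between the sexes it called 0, where 2.41% of all genes were called, with 0 below an unadjusted 0.05. DESeq2 called 0 in all 4.

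mt-Co1 was at 35620.2, 25952 and 9998 CPM in the male controls and at 27712, 34528 and 39126 CPM (lowest, median, highest) in the males given the inhibitor, a log2 difference of 0.61 (SE 0.489, edgeR adjusted p = 0.502). In females it was at 16124, 33614 and 32385 CPM in the controls and 14151, 10159, 49028, 23290.5 and 29114 CPM with the inhibitor, a log2 difference of -0.12 (SE 0.491, edgeR adjusted p = 0.943). The third male control and the second female given the inhibitor were the lowest 2 libraries for mt-Co1. The medians over the members were 0.61 in males and -0.12 in females, against 0.01 and -0.01 over all genes. Under library totals without scaling the median over all genes moved to -0.10 in males and to 0.15 for the difference between the sexes.

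Across the 17 inhibitor libraries the mitochondrial share moved with the astrocyte markers. The summed level of that list ranged from 3246 to 13950 CPM of non-mitochondrial counts, and its Pearson correlation with the share was 0.862 (Spearman 0.848), or 0.766 without the 2 libraries farthest from the median marker level. With group means removed it was 0.933 (Spearman 0.85), or 0.908 without 2 libraries. Neuronal markers gave 0.657 and oligodendrocyte markers 0.735 over the same libraries.

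In the 28 agonist libraries the astrocyte list ranged from 7082 to 12600 CPM and gave 0.52 (Spearman 0.633), or 0.327 without 2 libraries. With group means removed it gave 0.388, or 0.279 without 2 libraries. There the highest of the correlations described was with Malat1, a nuclear long noncoding RNA, at 0.651 (Spearman 0.581), or 0.501 without 2 libraries, and microglial markers gave -0.523. In the inhibitor hippocampus Malat1 gave -0.141, or 0.0964 with group means removed. In the microglia experiment Malat1 gave -0.741, or -0.386 with group means removed. Total counts gave -0.0727, 0.342 and -0.176 in the agonist, microglia and inhibitor experiments. All points share library, dissection and depth, and these values are descriptions.

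**Figure D5:**
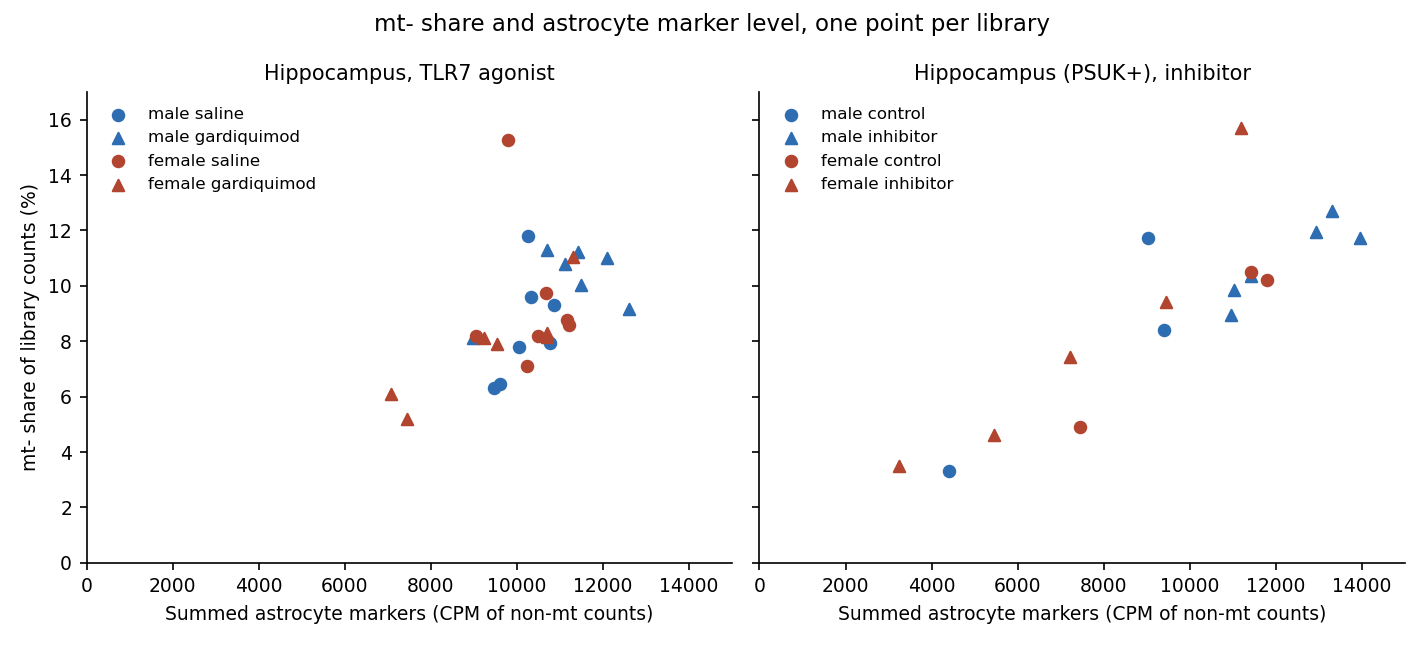
Percent of counts in mt- rows against the summed CPM of astrocyte markers, taken over non-mitochondrial counts, with 1 point per hippocampal library in the agonist and inhibitor experiments. The inhibitor libraries spread from 3.308 to 15.71% and rise with the marker level, with a Pearson correlation of 0.862.

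With the log2 astrocyte level as a covariate, an alternative added after seeing the data, edgeR called 0 members for the inhibitor in males and 1 in females, mt-Tw, the tryptophan tRNA. For the difference between the sexes it called 2, mt-Rnr1 and mt-Rnr2. The part of tissue makeup in the hippocampal values was not tested beyond this.

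By edgeR, none of the nuclear respiratory-chain genes was called in the hippocampus, with 0 of 82 in every comparison. With Gardiquimod their median was 0.08 in males, where 9 had an unadjusted p below 0.05 and DESeq2 called 1, and 0.04 in females, with 0 below an unadjusted 0.05 and 0 called by DESeq2. Of all 17218 genes tested, 2724 in males and 1043 in females were below an unadjusted 0.05. With the inhibitor the median was 0.13 in males and 0.02 in females, with 3 genes below an unadjusted 0.05 and 0 called by DESeq2 in each. Of all 17128 genes tested, 3017 in males and 1982 in females were below an unadjusted 0.05. For the sex difference in the response to the inhibitor, 6 genes had an unadjusted p below 0.05, beside 4359 of all 17128 genes tested. DESeq2 called 5, all with a response higher in females than in males. The DESeq2 count is given without its share over all genes.

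Of the 77 mitochondrial ribosomal protein genes edgeR also called 0 in every hippocampal comparison. Their medians were -0.03 and 0.07 with Gardiquimod in males and females, with 5 and 2 genes below an unadjusted 0.05, and 0.01 and 0.04 with the inhibitor, with 6 in each. DESeq2 called 0 in these 4 comparisons. It called 5 for the sex difference in the response to the inhibitor, given without its share over all genes. By edgeR 12 had an unadjusted p below 0.05 there. The counts of all genes below an unadjusted 0.05 are those given above with the respiratory-chain genes.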

How the data were processed

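Gene counts were used as deposited by the authors, in 3 tables of whole-number counts per gene for 28, 24 and 17 libraries. The submitters' processing notes name DESeq2 1.38.3 and, as builds, mm10 and GRCm38. For the aligner, counter, annotation, strand setting and treatment of reads with several matches, no source used here gives a name.

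Members were all rows whose symbol starts with mt-, and CPM was taken on library totals. Genes were filtered with filterByExpr and tested in each table with edgeR 4.0.16 (R 4.3.3; TMM scaling, robust quasi-likelihood fit over all groups, Benjamini-Hochberg adjustment over all genes, threshold 0.05). DESeq2 1.42.0, other scalings, no filter, a replicate block, age, Ttr and leaving out each library were alternatives. Adding the counts of nuclear copies, the astrocyte covariate and Ttr in microglia were added after seeing the data. The edgeR fit was tested on data simulated with a common spread for all genes. It recovered 0% of 1.2-fold and 18.4% of 1.5-fold changes in inhibitor males. In agonist males these were 10% and 80%, and in male WT microglia 38.3% and 68.8%. The common coefficient of variation was 0.1789 in the inhibitor and 0.1318 in the agonist experiment. That of mt-Co1 CPM within groups had a median of 44.95% and 22.84%, so recovery for the members was not measured. Tables were made with Python 3.11.15 and pandas 2.3.3. Marker sums are CPM of the counts outside mt- rows. Copies were looked for in GENCODE M21 transcripts.

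The protein and rRNA members were named throughout, tRNA members where they passed the filter, and up to 3 called genes per direction of each nuclear list with at least 4 CPM. The members and lists were chosen with earlier results of these data known. No pair of libraries was identical. Replicate numbers of microglia groups were checked for pairing: only in female KO did all 3 pairs of same-numbered myelin and DMSO libraries deviate together (correlations 0.487, 0.267 and 0.162), against 3 of 21 pairs above 0.1 elsewhere. In that comparison the block left the count of called members at 8.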

Additional observations from a re-analysis of the deposited data

Results flagged for a closer look

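The second female saline library of the agonist experiment held 15.25% of its counts in mitochondrial rows, while the other 6 libraries of its group held between 7.121 and 9.728%. Its gap to the nearest library exceeded Dixon's 95% critical value for 7 samples. The same library was also apart for the protein-coding mitochondrial rows alone, at 13% of its counts. This check was made on 18 combinations of group and measure, and chance flags about 1 in 20. Without that library the difference between female Gardiquimod and saline groups was -0.6074 percentage points, against -1.582 with it.

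The response of mt-Nd1 to myelin in male microglia differed between genotypes by 0.289 on the log2 scale (KO minus WT, edgeR adjusted p = 0.048). No other member was called for this difference by edgeR under the reported settings, and the call was lost in 10 of 19 alternatives. DESeq2 called 2 members for it in males and 1 in females.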

How the results depend on the processing

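Of 155 recounts of called members in microglia, 130 stayed within 1.5 times of the reported count and 25 did not. In the hippocampus the reported count was 0 throughout and says little of stability. Of 127 recomputed differences in mitochondrial share, all stayed within 1 SD of the reported value. The 61 calls of a member in a comparison kept their direction in all 799 refits and 95 of these refits lost the call, the cause of which was not tested. A member called in several comparisons counts more than once among the 61. For the male difference in myelin response, 1 call became 2 with DESeq2, 2 without a filter, 0 with the replicate block and 0 to 3 when 1 library was left out. The female difference gave 1 with DESeq2 and 0 to 1 with libraries left out. Females against males in WT DMSO gave 1 with DESeq2 and 2 with the Ttr covariate. KO against WT gave 1 in males given DMSO on library totals without TMM and 0 to 1 with libraries left out, and 0 to 3 in females given DMSO. Myelin in female KO gave 4 to 8 with libraries left out. The inhibitor gave 1 in females and 2 for the difference between the sexes with the astrocyte covariate, and no member was called in the other 214 of 216 hippocampal refits. With the replicate block the counts were 9 and 11 for myelin in male and female WT, 6 and 8 in male and female KO, 0 and 3 for KO against WT with DMSO and 11 and 11 with myelin. It moved no other count. No paired analysis was possible because, in the hippocampal groups, replicate numbers follow sample order and name no shared animal, litter or day. With the nuclear copies added to their rows, myelin calls were 9 and 13 in WT males and females and 5 and 8 in KO males and females.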
